A study of Rattus norvegicus with 93 samples.

Results

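Somatostatin (Sst), the related peptide cortistatin (Cort) and 4 of their receptors (Sstr1, Sstr2, Sstr3 and Sstr4) were followed by gene symbol across RNA-seq libraries of the rat rostromedial tegmental nucleus. These 6 genes are 6 of the 38354 genes with a row in the expression table. The fifth receptor, Sstr5, was read with the pathway genes. The rostromedial tegmental nucleus (RMTg) is a midbrain group of mostly GABAergic neurons that inhibits dopamine neurons and is studied in aversion and avoidance. The labels describe 93 polyA RNA samples of this nucleus from outbred rats and put them in 1 group, with no strain, sex, age, treatment or behaviour, so no condition could be compared and the values were compared between libraries. A value column was present for 92 of the samples, and 49 of those libraries were used, as described below.

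Somatostatin is a small cyclic peptide that is cut from a precursor, stored in dense-core granules and released by many inhibitory neurons. Cortistatin is its close relative and binds the same receptors. The receptors couple to inhibitory G proteins, which lower cyclic AMP, open inwardly rectifying potassium channels and close presynaptic calcium channels. Transcription of Sst is a classic target of the cyclic AMP response element (CRE) and its binding factor CREB.

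In RefSeq on the GRCr8 build, Sst lies at chr11:90461546-90462823 (gene 24797), Cort at chr5:164843682-164845796 (gene 25305) and Sstr1 at chr6:81567237-81571759 (gene 25033). Sstr2 lies at chr10:99163353-99170519 (gene 54305), Sstr3 at chr7:111973049-111980250 (gene 171044) and Sstr4 at chr3:156307992-156309855 (gene 25555). All 6 are protein-coding. The table gives 1 position per gene, and for 6 of the 6 it was an end of the RefSeq gene on that build. The nearest symbol-named neighbours in the table were Dffa and Cenps beside Cort, Clec14a beside Sstr1, Cog1 beside Sstr2 and Thbd beside Sstr4. The nearest neighbours of Sst and Sstr3 had only LOC symbols.

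The CRE palindrome TGACGTCA was searched on both strands of RefSeq's promoter windows, each running from 250 bases before to 50 bases after a start. It reads the same on both strands and contains the 5-base core TGACG. The palindrome was found in the windows of Sst and Sstr2, and in 612 of 33469 windows in the whole table (1.83%). The 2 sequences are shown because Sst and Sstr2 carry the full palindrome, which stands in capitals. The first is on the plus strand of GRCr8 at chr11:90461296-90461555 and ends 10 bases past the RefSeq start, where the palindrome ends. The second is on the plus strand at chr10:99163103-99163352 and ends just before the start.
Sst promoter: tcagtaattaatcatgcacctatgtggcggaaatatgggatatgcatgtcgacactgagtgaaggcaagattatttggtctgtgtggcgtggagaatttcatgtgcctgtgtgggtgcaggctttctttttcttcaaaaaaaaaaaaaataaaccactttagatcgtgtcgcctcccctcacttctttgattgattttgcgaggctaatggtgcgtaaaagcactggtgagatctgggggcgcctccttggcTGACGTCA
Sstr2 promoter: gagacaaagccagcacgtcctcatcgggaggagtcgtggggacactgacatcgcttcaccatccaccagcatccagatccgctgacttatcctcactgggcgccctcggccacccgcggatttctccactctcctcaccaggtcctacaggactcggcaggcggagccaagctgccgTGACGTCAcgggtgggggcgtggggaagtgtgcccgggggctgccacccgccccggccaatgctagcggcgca
The palindrome covered bases 3 to 10 counted from the RefSeq start of Sst, and bases -73 to -66 counted from that of Sstr2. No other start of these 2 genes was examined. The core alone, which 21.2% of all windows hold, was also found in the windows of Cort and Sstr1, at bases -105 to -101 and -15 to -11 from the start used in the promoter table. That start lies inside the RefSeq gene for these 2 genes, so their sequences are not shown. Neither form was found in the windows of Sstr3 and Sstr4. A match describes the letters only.

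The libraries used were those in which Nif3l1 held under 20% and LOC120093067 plus Zfp532 under 10% of the summed estimated counts. Of the other 43, 32 had 19.8% to 56.02% of their counts in LOC120093067 and Zfp532, and 11 had 28.8% to 51.9% in Nif3l1. The 49 held 9545360 to 50172732 estimated counts (median 19193978), and their values were scaled to counts per 1000000 counts (CPM). Their titles fall into 5 runs of identifiers, here series B (7 libraries), C (16), D (12), E (7) and F (7), which the labels do not call batches. Among neuronal markers, the 11 RMTg inhibitory genes summed to 724 to 1208 CPM and were all above the filter. The 11 dopaminergic genes (369 to 2474 CPM) and 5 serotonergic genes (209 to 576 CPM) of neighbouring nuclei were as well. Of 5 cholinergic markers 2 passed (sum 1.82 to 13.5 CPM), with Chat, Slc18a3 and Isl1 below the filter, and of 5 forebrain markers 2 passed (sum 4.02 to 25.1 CPM). Of 5 cerebellar markers 2 passed as well, Calb2 and Neurod1, with Gabra6, Pcp2 and Cbln3 below the filter. The cerebellar list summed to 220.1 to 515 CPM, and that sum does not show which gene carried it. In whole tissue, fewer cells of a type and less RNA per cell cannot be told apart. P-values measure the spread between libraries, since the labels do not say whether each came from a separate animal. CPM is not divided by transcript length, so levels are compared between libraries and not between genes.

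Of the 2 peptide genes, Sst was measured in every library and Cort was near the limit of detection. Sst ranged from 94.98 CPM over a median of 134.6 to 301.5 CPM (141 ± 33.6, SD, n = 49). The second highest library was at 209 CPM, so 1 library of series D stood well above the others. Sst rested on a median of 2970 estimated counts, for which counting alone gives a coefficient of variation of 1.83%, against 23.8% observed. For its level, Sst varied more than 77.8% of the 18749 genes that passed the filter on low values, which asked for a log2(CPM + 1) of at least 1 in 20% of the libraries. Both the 23.8% and this rank include the highest library, and they were not computed without it. Median Sst was 142.9 CPM in series B, 143.4 in C, 130.3 in D, 127.6 in E and 148.0 in F, and the ranges of the 5 series overlapped. Cort had 0 counts in 14 of 49 libraries, a median of 0.083 CPM and a highest value of 0.502 CPM. It rested on a median of 2 counts, with 33 libraries under 3 counts and a highest count of 14. Counting alone gives a coefficient of variation of 70.7% at that median, against 109% observed. Small differences in Cort could therefore not be measured at this depth, and it did not pass the filter.

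The receptors were lower in counts. Sstr1, a receptor found widely on neurons, ranged from 9.30 over a median of 23.7 to 38.7 CPM (23.9 ± 6.67, SD, n = 49). Its lowest value was in the library of highest Sst, and the next lowest was 13.5 CPM. Its observed coefficient of variation was 27.9%, against 4.53% from counting at its median of 487 counts. For its level, it varied more than 91.5% of the genes past the filter. Sstr2, a receptor that is taken into the cell after it binds peptide, ranged from 4.16 over 7.52 to 10.9 CPM (7.44 ± 1.56, SD, n = 49). Its coefficient of variation was 20.999%, against 8.54% from counting, and 25.8% of genes varied less for their level. Sstr2 was thus among the steadier genes, and Sstr1 among the more variable ones.

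Sstr3, the receptor known from neuronal primary cilia, ranged from 0.322 over 1.21 to 3.23 CPM (1.28 ± 0.606, SD, n = 49), and reached 1 CPM in 32 of 49 libraries. Its coefficient of variation of 47.4% included 21.8% from counting at a median of 21 counts. Sstr4 ranged from 0 over 0.335 to 0.943 CPM (0.333 ± 0.234, SD, n = 49), on a median of 6 counts. It was at 0 in 5 libraries and failed the filter, so 4 of the 6 genes entered the tests as measured genes. Sstr5 had a median of 0.281 CPM and was at 0 in 5 libraries, so it was not tested either.

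**Figure D1:**
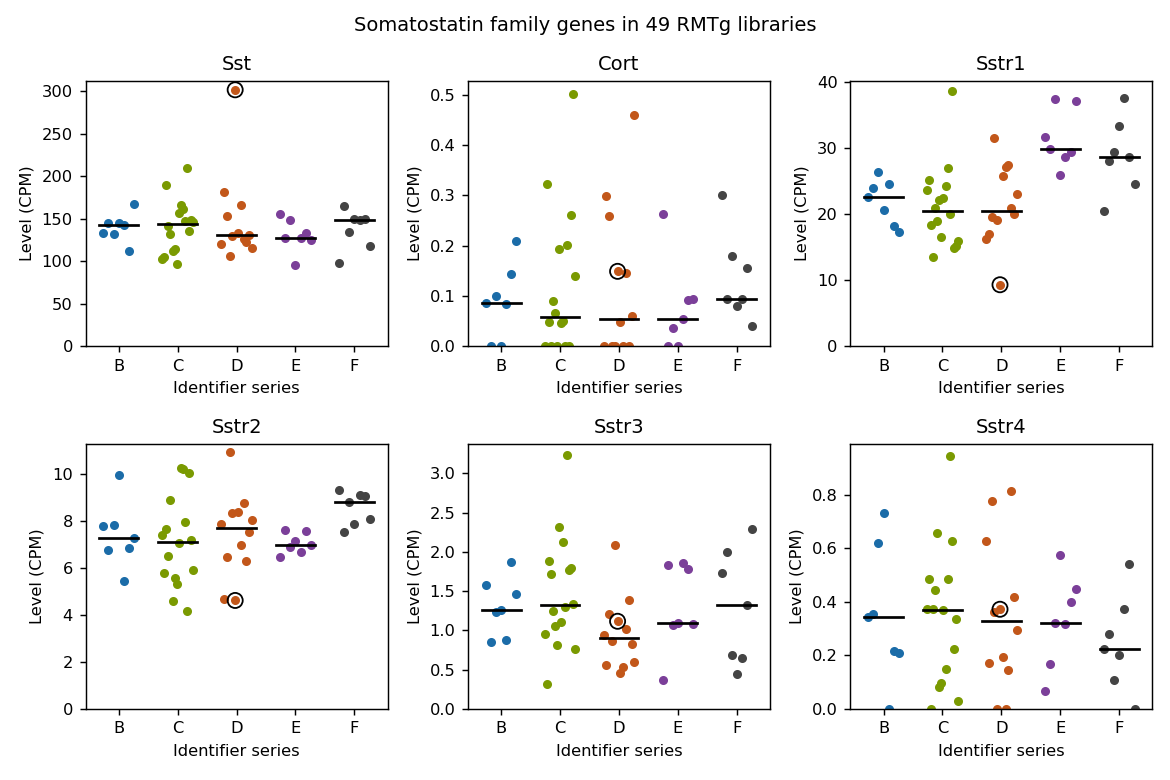
Levels of the 6 genes (vertical axes, CPM, each from 0) in 49 libraries, by identifier series B to F (7, 16, 12, 7 and 7 libraries, horizontal axes). Points are libraries, bars are medians and the open circle is the library of highest Sst, at 301.5 CPM, which is also the lowest in Sstr1, at 9.30 CPM.

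Of the 4 genes tested, Sstr1 alone differed between the identifier series. Median Sstr1 was 22.6 CPM in series B, 20.5 in C, 20.4 in D, 29.9 in E and 28.7 in F. All 7 libraries of series E lay between 25.9 and 37.4 CPM. The 12 of series D lay between 9.30 and 31.6 CPM, so the 2 ranges overlapped. In a limma moderated F test over all 18749 genes, 1.71% of genes passed an adjusted p of 0.05, and Sstr1 was among them (F = 6.08, adjusted p = 0.0319). Sstr3, Sstr2 and Sst did not pass (adjusted p = 0.665, 0.722 and 0.969). The Sstr1 call was lost with the log10 library total as covariate (adjusted p = 0.144), with Xist and Ddx3y levels as covariates (0.680) and with no filter (0.0768). Depth differed by series, with median totals of 23427582 counts in B, 16371224 in C, 13840598 in D, 28212284 in E and 24997247 in F. Over the 49 libraries, Sstr1 had r = 0.37 with the log10 total (permutation p = 0.0091, adjusted 0.0273 over 30 relations). Its rho was 0.35 (permutation p = 0.013, adjusted 0.0557). Within series, r was 0.81 in B, 0.06 in C, 0.16 in D, 0.70 in E and 0.37 in F. The part of depth in the Sstr1 difference was not tested beyond the covariate.

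Immediate early genes, which neurons switch on after strong activity, moved with the same series. Fos had medians of 8.44, 9.37 and 8.03 CPM in series B, C and D, and of 166.9 and 193.6 CPM in E and F. Its values in B to D (highest 20.4) and in E and F (lowest 37.5) did not overlap. Those of Junb did not overlap either (highest 12.7 in B to D, lowest 18.6 in E and F). Egr1 did overlap (highest 19.4 in B to D, lowest 13.2 in E and F). A score was made as the mean z-score of the 9 of 10 listed immediate early genes past the filter, and likewise for 7 lists of cell type markers. Over the 49 libraries Sstr1 had a slope of 0.25 ± 0.04 (SE) on the log2(CPM + 1) scale per SD of the immediate early score (limma, adjusted p = 0.000142), where 11.6% of all genes passed. With the identifier series as covariate the slope was 0.36, with an adjusted p of 0.969. Within series, the Pearson correlation of Sstr1 with the score was 0.50 in B, -0.04 in C, 0.64 in D, 0.05 in E and 0.79 in F. Without the library of highest Sst it was 0.42 in D. In F, the library with the lowest score (0.28, series median 1.69) was also the lowest in Sstr1, at 20.5 CPM. The libraries fall into separate clusters on this score. The slope over the 49 and its p-value therefore cannot be separated from the difference between series B to D and series E and F. Series and immediate early genes cannot be told apart as companions of Sstr1.

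No other slope of Sst, Sstr1, Sstr2 or Sstr3 on a score passed the test over the 49 libraries. The passing shares of all genes were 3.92% for the dopaminergic, 0.0213% for the RMTg inhibitory, 0.582% for the interpeduncular and 0.0107% for the serotonergic score. They were 12.3% for the glycinergic, 0% for the cholinergic and 3.05% for the microglia score. The cholinergic score rests on 2 genes, Slc5a7 and Ngfr, and with it 715 genes had an unadjusted p under 0.05. Sst had slopes of 0.07 ± 0.04 on the dopaminergic score (adjusted p = 0.323) and -0.03 ± 0.04 on the RMTg inhibitory score (adjusted p = 0.821). These misses do not show that Sst is independent of either score. Taken alone, and chosen after its value was seen, the GABA-synthesising enzyme gene Gad1 ran against Sst, with r = -0.45 (permutation p = 0.0022, adjusted 0.00943 over 30 relations) and rho = -0.25 (permutation p = 0.082, adjusted 0.205). That relation rests on a few libraries, since r was -0.22 after removal of the 2 most extreme Sst libraries and -0.23 without the highest one. Within series it was -0.85 in B, -0.20 in C, -0.76 in D (-0.10 without the highest library), -0.72 in E and 0.64 in F. The nearest to the threshold was Sstr1 on the glycinergic score, at -0.13 ± 0.05 (adjusted p = 0.0829). Its slope on the dopaminergic score, 0.12 ± 0.05 (adjusted p = 0.187), passed when the 2 libraries with the most extreme scores were left out (0.17, adjusted p = 0.0415).

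**Figure D2:**
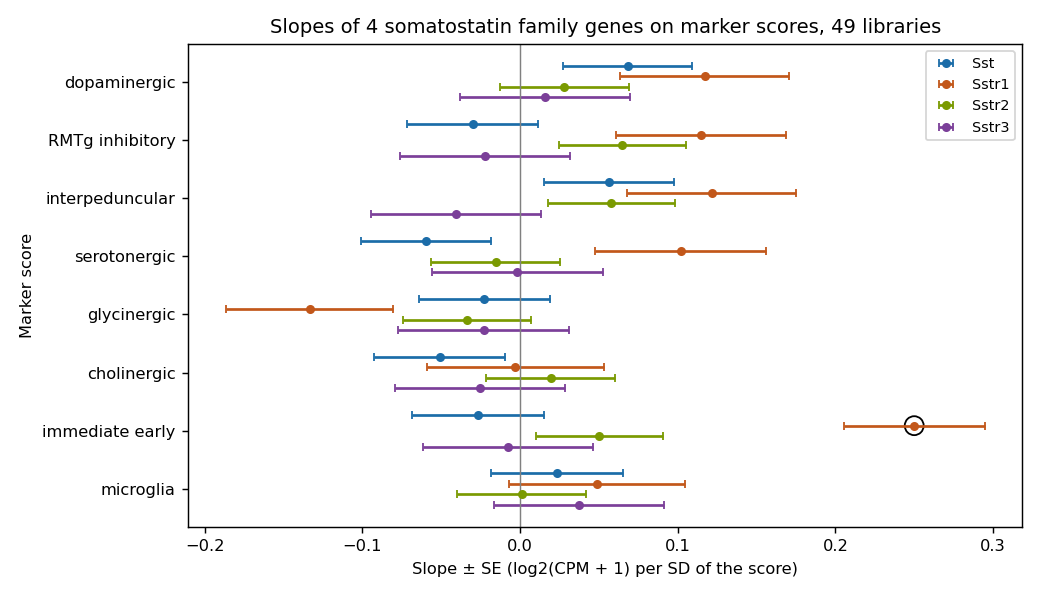
Slopes (horizontal axis, log2(CPM + 1) per SD of the score, with standard errors as bars) of Sst, Sstr1, Sstr2 and Sstr3 on 8 marker scores (vertical axis) over 49 libraries. The circled point, Sstr1 on the immediate early score at 0.25, was the slope with an adjusted p under 0.05. That call was lost with the identifier series as covariate.

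The peptide and receptor genes did not move together detectably. In the fits of each of the 6 genes as predictor, 0 of the 20 slopes between them passed the test, and none did under any of the 12 other settings. Over the 15 pairs, Pearson r ran from -0.27 to 0.23 and Spearman rho from -0.24 to 0.20, and 0 pairs had a permutation p under 0.05. Sst and Sstr1 had r = -0.17 (permutation p = 0.25, 0.395 adjusted over 30 relations) and rho = 0.02 (permutation p = 0.89, adjusted 0.99). Without the library of highest Sst their r was 0.10, and after removal of the 2 most extreme Sst libraries it was 0.00031. Within series, r was -0.09 in B, 0.29 in C, -0.76 in D (-0.32 without that library), 0.61 in E and 0.78 in F. Sst and Sstr2 had r = -0.23 (permutation p = 0.11, adjusted 0.194) and rho = -0.05 (permutation p = 0.71, adjusted 0.926), and r was 0.07 after the same removal. Their within-series r was 0.06 in B, 0.21 in C, -0.82 in D, -0.37 in E and -0.46 in F. Without the library of highest Sst, r in series D was -0.79.

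The genes across the table that followed Sst depended on the library of highest Sst. Per SD of Sst, 371 genes rose and 1240 fell at an adjusted p under 0.05, or 8.59% of the 18748 tested (limma, Benjamini-Hochberg). Without that library, 3 genes passed, all rising, although 3122 had an unadjusted p under 0.05. The split into rising and falling genes also turned with the scaling, to 1225 rising and 795 falling with median-of-ratios factors. The 3 genes, named after their values were seen, were Ly6h, which encodes a surface protein that binds nicotinic receptors (slope 0.18 ± 0.03, adjusted p = 0.0303), Lmo4, a LIM-only transcriptional partner (0.14 ± 0.03, adjusted p = 0.0268), and Zfp503, a zinc finger repressor (0.21 ± 0.04, adjusted p = 0.0303).

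That library belonged to series D and held 13445748 counts. It was the lowest of 49 in Sstr1 and ranked 47 of 49 in Sstr2, at 4.61 CPM, while Sstr3 (rank 26) and Sstr4 (rank 20) lay in the middle. The mean level of 76 ribosomal protein genes was 7.91 on the log2(CPM + 1) scale, second highest of 49 (others 6.49 to 8.03). The mean of 58 respiratory chain genes was the highest, at 8.16 (others 6.38 to 7.89), and that of 12 long neuronal genes the lowest, at 6.04 (others 6.09 to 6.59). Its summed oligodendrocyte markers (31729 CPM, others 38111 to 76155) and serotonergic markers (209 CPM, others 244 to 576) were also the lowest of the 49. The sums of the interpeduncular, immediate early, vesicular glutamate transporter and forebrain lists were the lowest as well. Ependymal markers ranked 2 from the highest, and glycinergic and microglia markers both ranked 3. The part of these differences in its Sst level was not tested.

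The ribosomal protein, respiratory chain and long neuronal lists were added after the values were seen, and their counts are a description. Over all genes, 371 rose and 1240 fell with Sst, or 8.59% of the 18748 tested. Of 76 ribosomal protein genes, 59 rose and 0 fell (median slope 0.14, against -0.03 over all genes). Without the library of highest Sst, 0 of the 76 passed (median slope 0.11). Of the 58 respiratory chain genes, 7 rose and 1, Ndufs1, fell. Of the 12 long neuronal genes, 4 fell (Dlg2, Lrp1b, Ptprd and Kcnip4). Without that library 0 of either list passed, and hardly any gene of the whole table did.

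**Figure D3:**
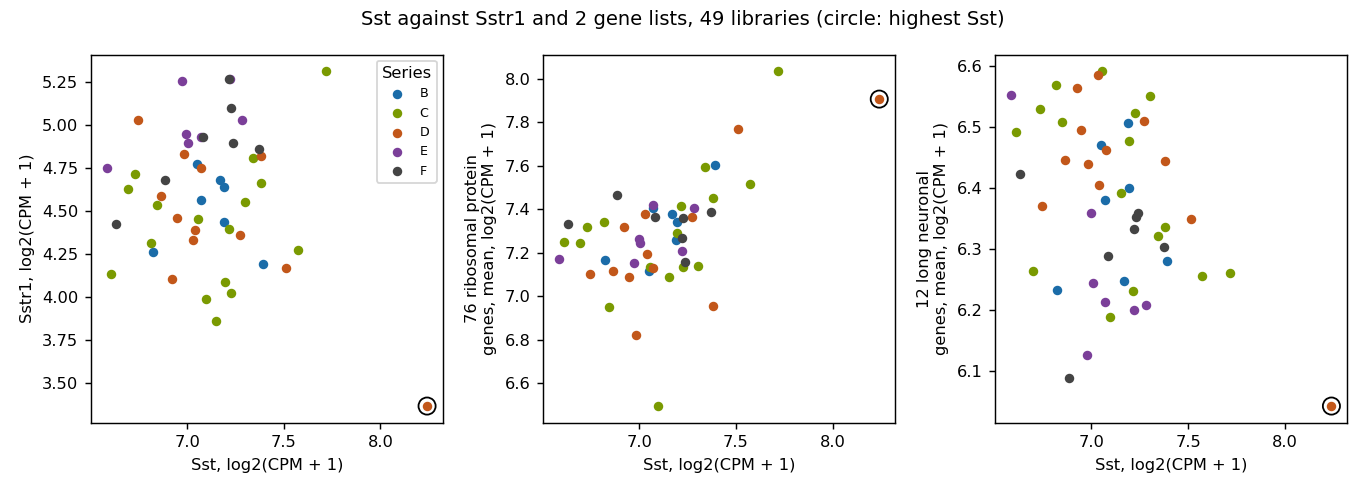
Sst (horizontal axes, log2(CPM + 1)) against Sstr1, the mean of 76 ribosomal protein genes and the mean of 12 long neuronal genes (vertical axes, log2(CPM + 1)) in 49 libraries, coloured by identifier series. The open circle is the library of highest Sst, which lies apart in all 3 panels, with the lowest Sstr1 and the lowest long neuronal mean.

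Named by the highest correlation with the same sign in all 5 series, the genes most like Sst were Ly6h (r = 0.73, 0.60 without the library of highest Sst), Rplp2, a protein of the ribosomal stalk (0.65, 0.49), and Smim27 (0.64, 0.53). Bex1 (0.63, 0.48), Tmsb10, which binds actin monomers (0.63, 0.44), Serf1 (0.61, 0.55), Bri3 (0.60, 0.50) and Bex2 (0.57, 0.50) followed. Those most opposed were Slmap (r = -0.64, -0.45), Pcyt1a, an enzyme of phosphatidylcholine synthesis (-0.62, -0.44), Gcdh, an enzyme of lysine breakdown (-0.62, -0.45), and Ppip5k2, an inositol pyrophosphate kinase (-0.61, -0.38). These values are over 49 and 48 libraries of the same tissue and describe likeness only. Ly6h had a median of 64.6 CPM and 205.1 CPM in the library of highest Sst, where the other 48 reached at most 119 CPM. Ly6h kept the same sign of slope in all 13 settings and passed in 11 of them.

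In the lists of somatostatin biology, counts are given against the 8.59% of all genes that passed with Sst. Of 6 precursor processing genes and 5 granule proteins, 0 passed in either direction. Of 16 genes of receptor coupling, 3 fell: Adcy2, an adenylyl cyclase (-0.12, adjusted p = 0.00655), and the inhibitory G protein subunits Gnai3 (-0.16, adjusted p = 0.0374) and Gnai1 (-0.14, adjusted p = 0.0363). Of 4 peptide-degrading enzymes, 1 fell, Ide (-0.11, adjusted p = 0.0450), and its slope ranged up to 0.0021 over the settings. None of these 4 genes passed without the library of highest Sst. Of 17 other neuropeptide genes and partners, 0 passed (median slope 0.05, against -0.03 over all genes), among them Crh (0.16, adjusted p = 0.100), Penk (0.08, adjusted p = 0.114) and Npy (0.05, adjusted p = 0.614). With median-of-ratios factors 3 of these 17 rose.

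Sstr1 had the most companions across the table. Per SD of Sstr1, 3180 genes rose and 3295 fell, or 34.5% of the genes tested, and 2258 rose and 1441 fell with the identifier series as covariate. Among the genes most like Sstr1 were Lratd1 (r = 0.79, 0.73 without the library of highest Sst) and Tiparp, an ADP-ribosyltransferase (0.76, 0.76). Those most opposed were Abcf1, a factor of translation (r = -0.75), and C10h1orf35 (-0.71). Tiparp ranged from 4.68 over 9.98 to 31.7 CPM, with medians of 7.64, 8.57 and 9.38 CPM in series B, C and D and of 20.3 and 24.7 CPM in E and F. Its r with Sstr1 was 0.54 in series B, 0.78 in C, 0.78 in D, 0.22 in E and 0.91 in F. All 4 of these genes passed in all 13 settings with 1 sign.

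Genes of transcription by cyclic AMP moved with Sstr1 in both directions. Of 8 tested, 2 rose and 2 fell. Crem, a CRE-binding factor that cyclic AMP itself induces, had medians of 41.9, 39.6 and 38.9 CPM in series B, C and D and of 61.5 and 71.7 CPM in E and F. It rose by 0.31 ± 0.04 per SD of Sstr1 (adjusted p = 2.74e-08) and passed in all 13 settings. Within series, however, its r with Sstr1 was 0.55 in B, 0.78 in C, 0.70 in D, -0.07 in E and 0.93 in F. Without the library of highest Sst, r in D was 0.51. Atf1, another CRE-binding factor, rose by 0.19 ± 0.03 (adjusted p = 1.74e-07). Crtc1, a CREB coactivator (-0.13, adjusted p = 0.00915), and the developmental factor Pax6 (-0.14, adjusted p = 0.00887) fell, and neither call held with the series as covariate. Creb1 itself did not pass (0.03, adjusted p = 0.570).

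Among genes of peptide processing and release, 2 of 6 processing enzymes rose with Sstr1, where 34.5% of all genes passed in 1 direction or the other, so the count is near that share. They were Pcsk1, a convertase (0.19, adjusted p = 0.000474), and Cpe, the carboxypeptidase that trims the cut peptides (0.16, adjusted p = 1.74e-07), whereas Pcsk2 did not pass (0.00, adjusted p = 0.996). Of 5 granule proteins, Scg2 (0.19, adjusted p = 0.000662) and Vgf (0.21, adjusted p = 0.00511) rose. With the series as covariate the calls of Pcsk1, Scg2 and Vgf were lost (Scg2 adjusted p = 0.571, Vgf 0.684), and Cpe kept its call. Pdyn (0.30, adjusted p = 0.00117) and Calca (0.20, adjusted p = 0.0114) rose among 17 other neuropeptide genes, and both calls were lost with the series as covariate.

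Among genes through which the receptor acts, 3 of 16 coupling genes rose with Sstr1 and 1 fell, a smaller share than the 34.5% of all genes that passed. The 2 of 7 regulators and 2 of 4 degrading enzymes below are to be read against the same share. Gnai1 (0.25 ± 0.03, adjusted p = 4.88e-07) and Gnai3 (0.27 ± 0.04, adjusted p = 9.71e-07), subunits of the inhibitory G proteins, rose and passed in all 13 settings. Adcy3, the adenylyl cyclase of neuronal cilia, rose by 0.08 (adjusted p = 0.0271). Cacna1a, the pore of P/Q-type calcium channels, fell by 0.13 (adjusted p = 0.00706). The potassium channel genes Kcnj3 (-0.01, adjusted p = 0.893) and Kcnj6 (-0.02, adjusted p = 0.638) did not pass. Of 7 regulators, Rgs4, which speeds up the switching off of inhibitory G proteins, rose (0.22, adjusted p = 3.38e-06) and the phosphatase Ptpn11 fell (-0.18, adjusted p = 0.000131). Ide and Nln, 2 of the 4 degrading enzymes, rose. In the primary cilium list, Bbs1 and Adcy3 rose and Arl13b fell, of 8. The calls of Ide and Bbs1 held in 4 of the 13 settings, with the sign kept in all of them. With the series as covariate, Adcy3, Arl13b and Nln lost their calls too, leaving 0 in the cilium list and 0 in the list of degrading enzymes. Median slopes were 0.09 for the processing, 0.05 for the coupling and 0.01 for the regulation list, against 0.00 over all genes.

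With Sstr2, 3028 genes rose and 586 fell, or 19.3% of those tested. The count fell to 740 rising and 435 falling with median-of-ratios factors. The genes most like Sstr2 were the homeodomain factor Pknox2 (r = 0.71), Mrps27 of the mitochondrial ribosome (0.70), the autophagy gene Atg16l1 (0.65) and Exoc1 of the exocyst (0.65). The adhesion gene Jaml (r = -0.54) and Erlin2 (-0.52) were the most opposed. Of these 6, all but Erlin2 passed in all 13 settings. Cog1, the neighbour at 29251 bases, had r = 0.53 and rho = 0.35 with Sstr2, and r of 0.93 in series D but -0.26 in B.

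Of the receptor regulators, 3 of 7 rose with Sstr2 and 1 fell, where 19.3% of all genes passed. The arrestins, which bind activated receptors and bring them into the cell, both rose: Arrb1 by 0.11 ± 0.03 (adjusted p = 0.00235) and Arrb2 by 0.15 ± 0.03 (adjusted p = 0.000557). Rgs4 rose by 0.15 (adjusted p = 0.00827) and Ptpn11 fell by 0.12 (adjusted p = 0.0250). Of 5 granule proteins 3 rose, Chga (0.11, adjusted p = 0.00816), Chgb (0.10, adjusted p = 0.00461) and Scg3 (0.05, adjusted p = 0.0437). Of 16 coupling genes 3 rose, Adcy2, Adcy3 and Gnaz, a share near that 19.3%. In the cilium list 4 of 8 rose, Bbs1, Bbs4, Tulp3 and Adcy3. The calls of Scg3 and Adcy3 held in 5 and 6 of the 13 settings. The enzymes Ide (0.15, adjusted p = 0.00197) and Thop1, the convertase Furin and the coactivator Crtc2 rose as well. Galanin (Gal) fell by 0.18 ± 0.05 (adjusted p = 0.00400), 1 of 17 other neuropeptide genes and partners. With median-of-ratios factors the slopes kept their signs, and the calls left were those of Arrb2, Ide, Ptpn11 and Gal. Without the library of highest Sst, Ptpn11, Furin, Crtc2, Tulp3, Scg3 and Adcy3 lost theirs.

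Part of the ribosomal protein and respiratory chain genes fell with rising Sstr2, in numbers that depended on the setting. Of 76 ribosomal protein genes 35 fell and 0 rose (median slope -0.09, against 0.02 over all genes), and of 58 respiratory chain genes 22 fell and 3 rose. Over all genes, 3028 rose and 586 fell, or 19.3% of those tested. Without the library of highest Sst, 15 and 9 fell, and with median-of-ratios factors 8 and 4 fell. Without the 2 libraries farthest from the Sstr2 median, 5 ribosomal protein genes and 1 respiratory chain gene fell, and 1 respiratory chain gene rose. The mean of the 76 ribosomal protein genes had r = -0.40 with Sstr2 (permutation p = 0.004, adjusted 0.015 over 30 relations). By rank, rho was -0.12 (permutation p = 0.4, adjusted 0.667). Within series, r was -0.22 in B, -0.31 in C, -0.74 in D, 0.03 in E and -0.62 in F. With Sstr1, 2 of the 76 ribosomal protein genes fell and 0 rose, but 3 rose and 0 fell without the library of highest Sst (median slope 0.04), so no direction is given. The difference between the 2 receptors was not tested.

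No gene followed Sstr3, Sstr4 or Cort at an adjusted p under 0.05 in limma (0% each). At an unadjusted p under 0.05 there were 1092 genes for Sstr3, 844 for Sstr4 and 493 for Cort. Median counts were 21, 6 and 2, and their part in the absence of calls was not tested.

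**Figure D4:**
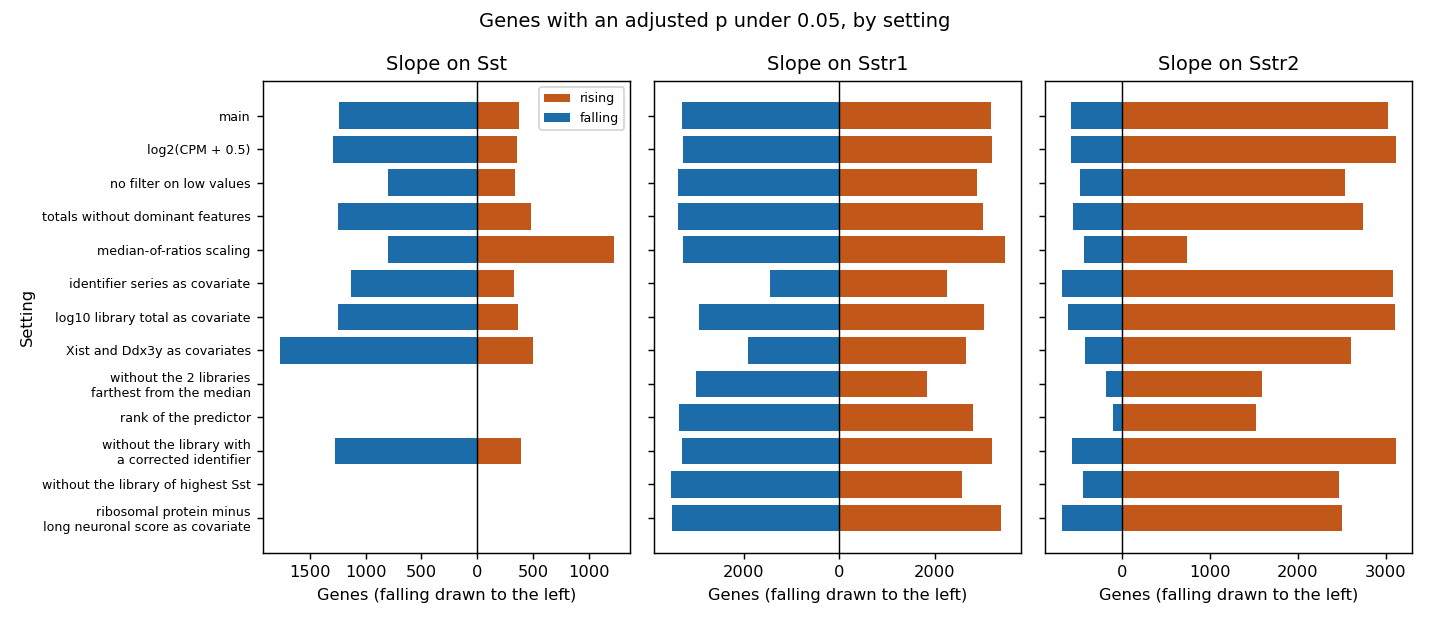
Genes with an adjusted p under 0.05 (horizontal axes, rising to the right and falling to the left) in the fits on Sst, Sstr1 and Sstr2 under 13 settings (vertical axis, the reported setting first). The bars of Sst vanish in 4 settings, with 0, 0, 3 and 1 genes, and those of Sstr2 shorten with median-of-ratios factors.

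In the libraries that were not used, most values were lower, and no test is given because the kinds of library were told apart by the data. In the 32 libraries rich in LOC120093067 and Zfp532, Sst ranged from 2.02 over a median of 9.09 to 337.6 CPM, and 28 of them lay below every used library. The median was 14.8-fold lower than in the 49, or 7.47-fold when totals were taken over the remaining features. Over all genes the median fold was 2.33 and 1.31 on the same 2 scales, and 3.17% of genes were lower by more than Sst. Sstr1 ranged from 1.96 over 13.7 to 29.5 CPM there, 1.73-fold lower. That direction turned when those features were taken out of the totals, with medians of 25.7 CPM in the 32 and 24.5 CPM in the 49. Sstr2 had a median of 1.36 CPM (0 to 5.18), 5.55-fold lower, or 3.11-fold on the other scale. In the 11 libraries rich in Nif3l1, Sst had a median of 0.250 CPM (at most 1.75), and Cort, Sstr3 and Sstr4 were at 0 in all 11. That was a general feature of the 11, in which 10927 of the 18749 genes had a median of 0 and 59.1% were lower by more than Sst. Depth differed as well, with median totals of 5400209 counts in the 32 and 4934044 in the 11.

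**Figure D5:**
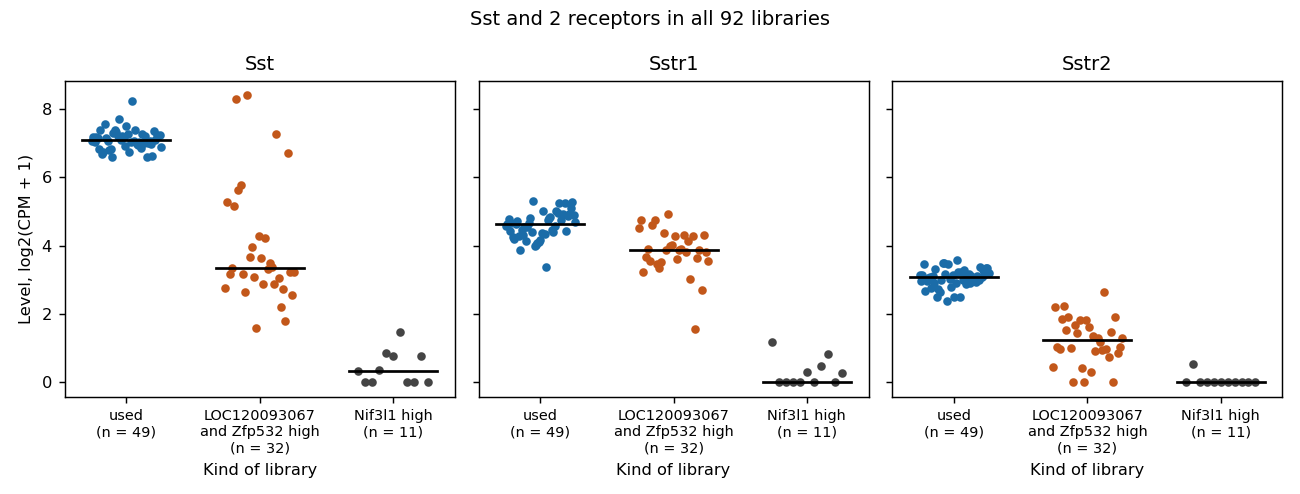
Sst, Sstr1 and Sstr2 (vertical axis, log2(CPM + 1)) in the 49 libraries used, the 32 rich in LOC120093067 and Zfp532 and the 11 rich in Nif3l1 (horizontal axes). Points are libraries and bars are medians, which for Sst correspond to 134.6, 9.09 and 0.250 CPM.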

How the data were processed

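The deposited table holds log2 values per gene and sample, and back-transformed values (2 to the power of x, minus 1) below 20 were nearly whole in 50.0% of cases (tolerance 0.01), so they were read as log2(estimated count + 1). The submitters' processing notes name kallisto 0.48; the genome build, annotation and library kit are not given in the sources used here. The back-transformed values were scaled to CPM over all features and analysed as log2(CPM + 1). Of 38354 genes, 18749 passed the filter (log2 of at least 1 in 20% of the 49 libraries). Since the values are not whole counts of reads, limma 3.58.1 (R 4.3.3) with a mean trend was used, two-sided, with Benjamini-Hochberg adjustment over all genes and a threshold of 0.05. Predictors were put in SD units. Permutation tests used 100000 resamples (numpy 2.4.6), for which the smallest p is 1e-05, and the fits were tested on simulated data. Spread for level is the SD minus a lowess trend (statsmodels 0.14.6). Identifier series are split at gaps of over 50000 between titles.

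The 6 genes, pathway lists and marker lists were chosen with earlier results of these data known. Genes named are the 6, pathway genes that passed with 2 to 4 others per list, the table's neighbours, and by Pearson r (same sign in every series, symbol-named, slope passed) the 8 highest and 4 lowest for Sst and 4 and 2 for other members. Some genes that this rule or the marker lists name are not reported here. The ribosomal protein, respiratory chain and long neuronal lists, Lmo4 and Zfp503, 2 of the 12 alternatives and the extension of the promoter search past the start were chosen after seeing the data. RefSeq (GRCr8) matched 38278 symbols and 6 of 6 promoters. Of the 49, 1 library has a corrected identifier in its labels. Alternatives were another pseudocount (0.5), filter, scaling, covariates and libraries.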

Additional observations from a re-analysis of the deposited data

Results flagged for a closer look

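Somatostatin genes also gave signal in the 43 libraries that no slope used. More than 3 estimated counts, the limit that a count of 0 allows, were found for Sst in 35 of them, for Sstr1 in 33, for Sstr2 in 23, for Sstr3 in 13 and for Sstr4 in 4. No control libraries exist to compare them with. The highest Sst values among all 92 libraries, 337.6 and 313.8 CPM, lie in 2 of the 32 libraries rich in LOC120093067 and Zfp532, above the 301.5 CPM of the highest library used.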

How the results depend on the processing

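Counts moved as follows. Genes with a slope on Sst (1611) went to 0 after removal of the 2 most extreme Sst libraries (1129 at an unadjusted p under 0.05), 0 with ranks (2860 unadjusted), 3 without the library of highest Sst and 1, Ly6h, with the ribosomal protein minus long neuronal score as covariate. Genes with a slope on Sstr2 (3614) went to 1175 with median-of-ratios factors, 1778 without the 2 farthest libraries and 1631 with ranks, and those on Sstr1 (6475) to 3699 with the series as covariate. Of the 4 genes tested, those differing between series went from 1 (Sstr1) to 0 with no filter, with the library total and with Xist and Ddx3y as covariates. Those with a slope on the immediate early score went from 1 to 0 with the series as covariate, and those on the dopaminergic score from 0 to 1 without the 2 farthest libraries. No slope of a member reversed while called. The causes were not tested. No paired analysis was possible because the labels give 1 group. Counting error is largest beside the level of Cort and Sstr4.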
